A study of Mus musculus with 6 samples.

Results

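The core spliceosome components are 35 genes for proteins of the machine that removes introns from pre-mRNA, and their transcripts were followed in MIN6 cells after knockdown of TDP-43. Members were taken as listed, and each was read on the brightest probe set that the array's annotation gives to that gene alone. This left 32 of the 35 members among 12614 genes tested. The 3 others, Snrpa of the U1 particle and Snrpd1 and Snrpd2 of the Sm ring, are listed only on probe sets that also name another gene, so no value is given for them.

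MIN6 is an insulin-producing line from a mouse beta cell tumour. The cells received an siRNA against TDP-43 (gene Tardbp), an RNA-binding protein, or a control siRNA by electroporation, at 100 pmol in both groups, and each group has 3 arrays, so n = 3 per group throughout. All cells came from the same line and had the same medium and pulse, and the labels name no further treatment and no time of harvest. The labels do not say that the 3 arrays of a group came from separate cultures, so p-values measure only the spread between these samples, which may be technical. Of 10 beta cell markers 9 were measured, among them Ins2, with signals from 6918 to 8372 after TDP-43 siRNA and from 6936 to 8327 in control siRNA arrays. Of 7 fibroblast, endothelial and immune markers 5 had no single-gene probe set past the filter on dim signals, and the remaining ones, Col1a2 and Lyz2, had signals of 117.8 at most. Of 5 markers of other islet cells 2 were measured, Gcg and Ttr, and of 4 acinar and duct markers 2, Krt7 and Cela1. Gcg of alpha cells was at 7735, 8000 and 8761 (TDP-43 siRNA), against 9792, 10654 and 7345 (control siRNA). Ttr was at 20776 or more on every array. Krt7 of duct cells was at 4821 or more on every array, while Cela1 of acinar cells was at 91.4 at most. None of the markers measured was called by limma, 1 was higher (Slc30a8) and 1 lower (Col1a2) at an unadjusted p below 0.05, and their part in the results below was not tested. Array medians ran from 72.3 to 79.97. Precision is limited by the number of arrays.

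The spliceosome is built anew on each intron from small nuclear ribonucleoproteins (snRNPs), which are particles of one small nuclear RNA and a set of proteins. U1 pairs with the start of the intron and U2 with the branch point near its end, after which the tri-snRNP of U4, U6 and U5 joins and helicases rearrange the complex into its catalytic form. All of these except U6 carry a common ring of Sm proteins around their RNA. TDP-43 is itself a regulator of splicing that represses cryptic exons, but it is not a part of this core.

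Tardbp itself fell. On its brightest probe set, signals were 2257, 2249 and 1836 after TDP-43 siRNA, against 3748, 3940 and 3699 in control siRNA arrays, a log2 difference of -0.85 (SE 0.084, limma adjusted p = 0.00175). On this probe set the knockdown left 55.6% of the control signal, with a 95% interval from 48.8% to 63.4%. Estimates of the depth varied: the further probe sets of Tardbp lay between -1.41 and -0.86, and the mean of its probe sets at -1.13. Tested against the brightest, no further one differed past the threshold (limma adjusted p of 0.336 or more over 10812 pairs). All differences below are TDP-43 siRNA minus control siRNA on the log2(signal + 12) scale, where the 12 damps the noise of dim probe sets and understates changes in them.

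No core spliceosome component changed past the threshold. Of the 32 measured, 0 were higher and 0 lower at a limma adjusted p below 0.05, where 0.745% of all genes tested were called (0.166% higher and 0.579% lower). At an unadjusted p below 0.05, 1 member was lower, Snrpd3, and 0 were higher, against 5.86% of all genes lower and 6.71% higher. Adjusted p-values of the 32 members ran from 0.235 for Snrpd3 to 0.997 for Sf3b2. The differences were small: they ran from -0.22 for Prpf31 to 0.11 for U2af2, with a median size of 0.071 against 0.104 over all genes tested.

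On the brightest probe sets the intervals were narrow for most members, as far as the spread between these samples goes. For 31 of 32 members the 95% interval lay within 0.5 of 0, as it did for 70.5% of all genes tested, and the exception was the dim Ddx23. For 19 of 32 it lay within 0.25 of 0, against 24.2% of all genes tested. Tardbp, by comparison, had its whole interval beyond -0.5. Intervals of some dimmer probe sets of members reached past -0.5, as for Snrnp70 (-0.66 to -0.10). Those of others reached past 0.5, as for a further probe set of Ddx23 (-0.27 to 1.12). The members were brighter than most genes, with a median log2(signal + 12) of 11.3 against 9.25, and varied less between replicate arrays, with a median within-group SD of 0.093 against 0.13. For 23 of 32 members the difference between groups was smaller than the SD within them. This was not counted over all genes, whose median difference of 0.104 also lay below their median SD, so it is not shown to be particular to the members.

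**Figure D1:**
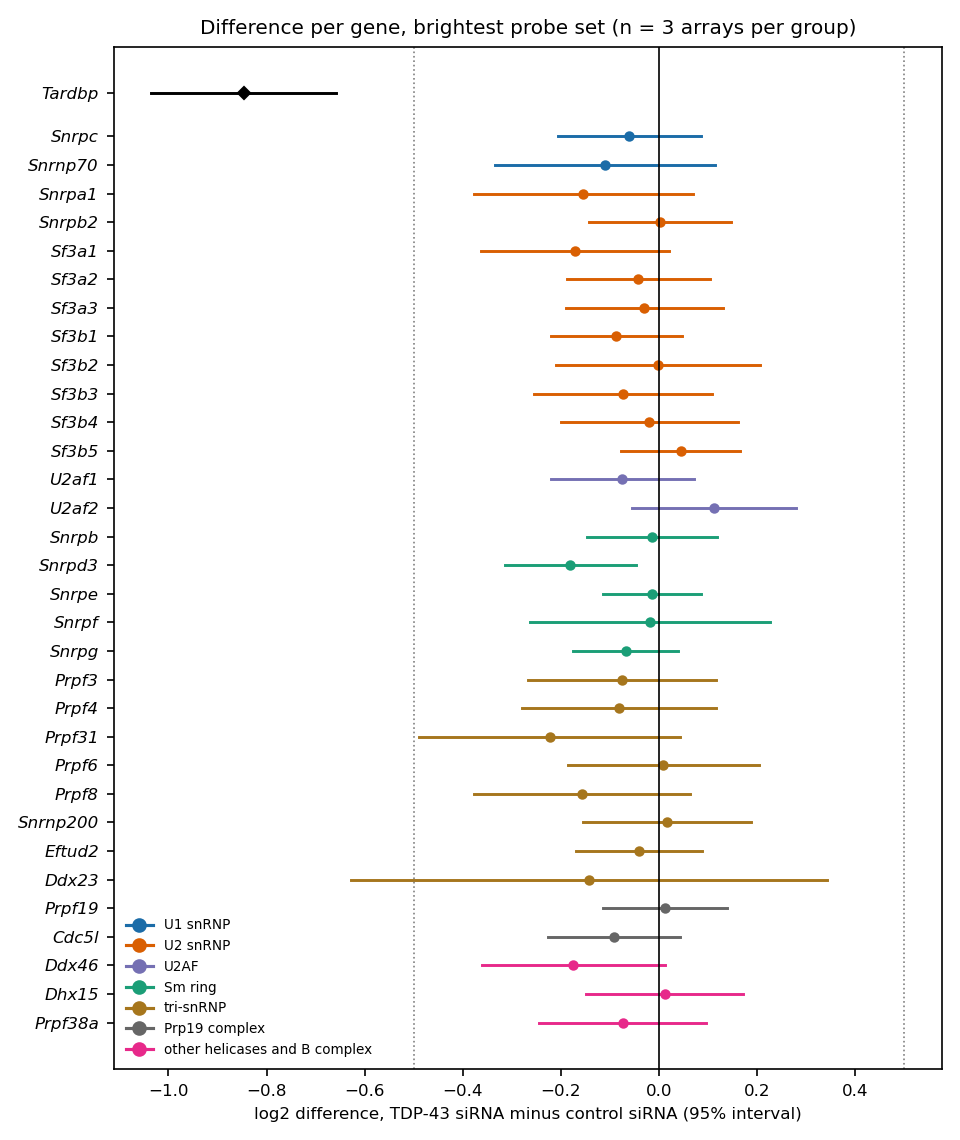
Log2 difference, TDP-43 siRNA minus control siRNA, for Tardbp (diamond) and the 32 core spliceosome components (circles, coloured by particle or complex), with bars for the 95% interval of the limma fit, n = 3 arrays per group. Dotted lines stand at -0.5 and 0.5; Tardbp lies wholly beyond the left one, and of the members the interval of Ddx23 alone crosses it.

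Most of the small differences pointed the same way. The log2 difference was below 0 for 25 of 32 members, against 45.1% of all genes tested, with a median of -0.064 for the members and 0.017 for all genes. With quantile normalization 24 members lay below 0 and with median centring 26. The arrays were scaled to one mean signal, so a change in the RNA of a whole cell would not be seen, and in bulk RNA fewer cells with a transcript and less of it per cell cannot be told apart. The share was not carried evenly by the arrays. The mean deviation of the members from their own 6-array mean was -0.037, -0.030 and -0.025 in TDP-43 siRNA replicates 1, 2 and 3, against 0.055, 0.050 and -0.013 in control siRNA replicates 1, 2 and 3. Control siRNA replicate 3 thus lay near the TDP-43 siRNA arrays.

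**Figure D2:**
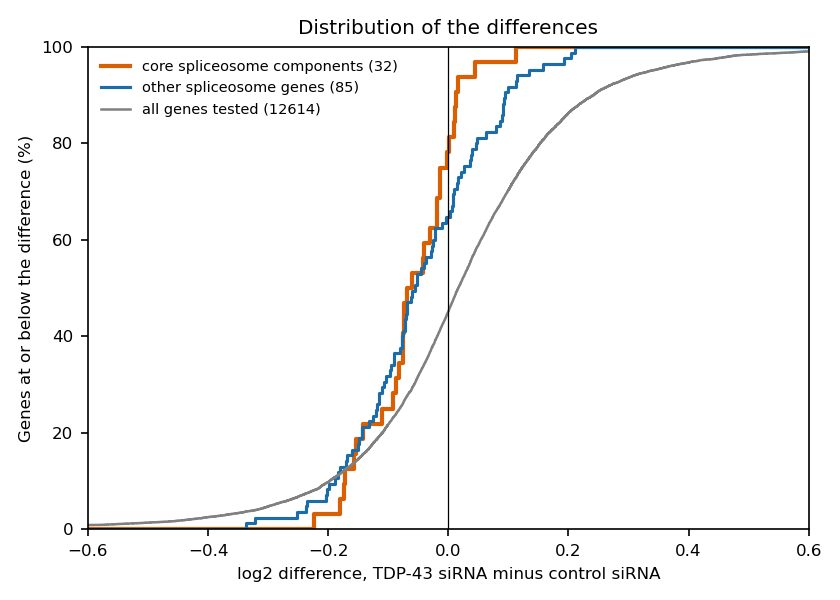
Cumulative share of genes (y axis, percent) at or below each log2 difference, TDP-43 siRNA minus control siRNA (x axis), for 32 core spliceosome components, 85 other spliceosome genes and all 12614 genes tested. The members' curve is steep and crosses 0 at a high share, since 25 of 32 lie below 0, and it spans only -0.22 to 0.11.

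The Sm ring holds the member with the smallest p. Snrpd3 encodes SmD3, which with its partners forms the ring that closes around the snRNA and is needed for the maturation and nuclear import of the particle. Its signals were 5467, 5141 and 4966 after TDP-43 siRNA, against 6168, 5884 and 5606 in control siRNA arrays. The groups did not overlap, which held on the lower side for 2 of 32 members and for 8.31% of all genes tested, and on the higher side for 0 members and 9.98% of all genes. On the log2 scale it was at -0.18 (SE 0.060, limma adjusted p = 0.235), which leaves 88.2% of the control signal with a 95% interval from 80.4% to 96.8%. Its further probe sets were at -0.20, with overlapping groups, and at -0.42. The last is dim, with 55.2, 47.4 and 36.6 after TDP-43 siRNA against 62.4, 58.4 and 77.5 in control siRNA arrays, and its groups did not overlap (SE 0.22, limma adjusted p = 0.508 over all probe sets).

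Snrpg, for SmG, was the other member whose groups stood apart, and it did so by little. Signals were 7216, 7292 and 7092 after TDP-43 siRNA, against 7533, 7752 and 7365 in control siRNA arrays, a difference of -0.068 (SE 0.048, limma adjusted p = 0.613). With quantile normalization, or without probe sets that can read several transcripts, 1 member in place of 2 had groups apart. The remaining measured ring members were closer still to 0. Snrpe (SmE) was at -0.014 with an interval from -0.11 to 0.085, the narrowest among the members. Snrpb, for SmB, was at -0.014, a value that is uncertain because Snrpn is a near-identical copy whose transcripts the probe set may also bind. Snrpn read 67.4 at most on its own brightest probe set, and such binding was not tested. Snrpf (SmF) was at -0.019, but its arrays scattered widely: 4656, 3640 and 3826 after TDP-43 siRNA against 4042, 4652 and 3588 in control siRNA arrays.

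In the U1 particle, which recognises the start of the intron, both measured proteins lay slightly below 0. Snrpc (U1-C), which stabilises the pairing of U1 with the splice site, was at -0.061 with an interval from -0.21 to 0.085. Snrnp70 (U1-70K), which binds the first stem of the U1 RNA and is a contact for SR proteins, was at -0.11 (interval -0.33 to 0.11). Its brightest probe set read 1171, 1351 and 1549 after TDP-43 siRNA, against 1381, 1454 and 1538 in control siRNA arrays, so the groups overlapped. A dimmer one read 269, 339 and 338 after TDP-43 siRNA, against 433, 369 and 439 in control siRNA arrays. There the groups did not overlap, and the difference was -0.38 (SE 0.12, limma adjusted p = 0.265 over all probe sets). The difference on the dimmer one minus that on the brightest was -0.27 (SE 0.12, limma adjusted p = 0.753 over 10812 pairs).

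All 10 proteins listed for the U2 particle were measured, and 8 lay below 0, with a range from -0.17 to 0.044. U2 is held at the branch point by the SF3a and SF3b complexes. Sf3a1, the scaffold of SF3a, had the lowest value: its signals were 1024, 1107 and 956.5 after TDP-43 siRNA, against 1254, 1149 and 1080 in control siRNA arrays. TDP-43 siRNA replicate 2 lay above control siRNA replicate 3, so the groups overlapped, and the difference was -0.17 (SE 0.086, limma adjusted p = 0.444). The other SF3a subunits, Sf3a2 and Sf3a3, were at -0.043 and -0.030.

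Snrpa1 encodes U2-A', which binds the U2 RNA together with U2-B''. It read 2831, 2572 and 2393 after TDP-43 siRNA, against 2980, 3242 and 2490 in control siRNA arrays. Control siRNA replicate 3 lay below 2 of the 3 TDP-43 siRNA arrays, and the difference was -0.15 (SE 0.10, limma adjusted p = 0.572). Its partner Snrpb2, which encodes U2-B'', was at 0.0016 with an interval from -0.14 to 0.15, and turned to -0.0065 with quantile normalization and to -0.0064 with median centring.

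The SF3b subunits lay near 0. Sf3b1, which clamps the branch point helix and is often mutated in myelodysplastic syndromes, was at -0.087 with an interval from -0.22 to 0.046. Its 3 further probe sets lay between -0.082 and -0.044. Sf3b2, Sf3b3, Sf3b4 and Sf3b5 were at -0.0018, -0.073, -0.020 and 0.044, with Sf3b2 at 0.019 under quantile normalization.

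U2AF, the heterodimer that reads the polypyrimidine tract and the intron's last bases and brings U2 in, had its subunits on opposite sides of 0. U2af2, the large subunit, had the highest value of all members, at 0.11 (SE 0.075, limma adjusted p = 0.586). It read 2265, 2136 and 2526 after TDP-43 siRNA, against 2138, 2201 and 2053 in control siRNA arrays, so TDP-43 siRNA replicates 1 and 3 lay above every control siRNA array and TDP-43 siRNA replicate 2 lay among them. U2af1, the small subunit, was at -0.075 with an interval from -0.22 to 0.071.

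**Figure D3:**
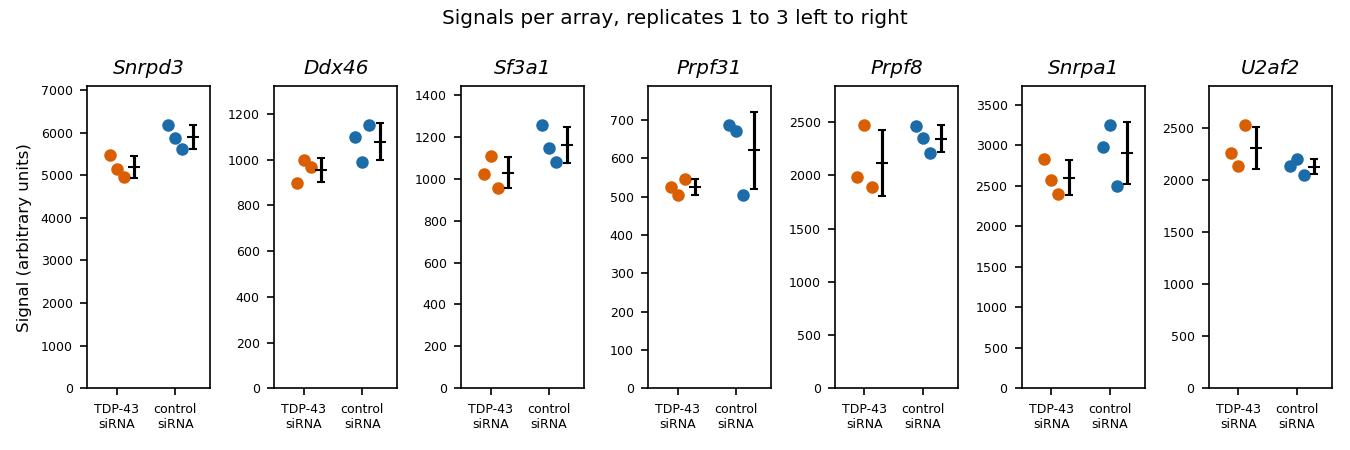
Signals on each array (arbitrary units, y axes from 0) for the 6 members with the smallest p and for U2af2, the member with the highest difference, with TDP-43 siRNA on the left and control siRNA on the right of each panel. Points are replicates 1 to 3 from left to right and bars are mean ± SD (n = 3); Snrpd3 is the only one of these 7 whose groups do not overlap.

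The tri-snRNP brings the factors of activation, and of its 8 members 6 lay below 0, between -0.22 and 0.016. Prpf31 links the U4/U6 and U5 particles and is mutated in a form of retinitis pigmentosa. It had the lowest difference of all members: 526.6, 504.8 and 545.0 after TDP-43 siRNA, against 686.1, 671.1 and 504.9 in control siRNA arrays. Control siRNA replicates 1 and 2 were high, and control siRNA replicate 3 sat among the TDP-43 siRNA arrays. The difference was -0.22 (SE 0.12, limma adjusted p = 0.480), and without control siRNA replicate 3 it was -0.36 (limma adjusted p = 0.0784). Its other probe set lay at 0.055, with 489, 515 and 489 after TDP-43 siRNA against 531, 493 and 418 in control siRNA arrays. The difference on it minus that on the brightest was 0.28 (SE 0.089, limma adjusted p = 0.566), the smallest p among the 44 pairs of members.

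Prpf8, the large scaffold at the catalytic centre, read 1984, 2468 and 1885 after TDP-43 siRNA, against 2463, 2350 and 2212 in control siRNA arrays. TDP-43 siRNA replicate 2 was the highest of all 6 arrays, and the difference was -0.16 (SE 0.099, limma adjusted p = 0.561). Its partners in U5 were nearer 0: the helicase Snrnp200 (Brr2), which unwinds U4 from U6, was at 0.016, and the GTPase Eftud2 (Snu114) was at -0.041 with an interval from -0.17 to 0.087. Snrnp200 turned to -0.13 with the mean of its probe sets. The U4/U6 proteins Prpf3 and Prpf4 were at -0.075 and -0.082, and Prpf6, a bridge within the tri-snRNP, was at 0.0089. Ddx23 (Prp28), the helicase that releases U1, had the dimmest probe set of the members, with 85.6, 77.9 and 125.8 after TDP-43 siRNA against 128.8, 84.4 and 107.7 in control siRNA arrays. Its interval from -0.63 to 0.34 leaves room for changes that the other members' intervals do not.

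Of the Prp19 complex, which stabilises the activated spliceosome, the ubiquitin ligase Prpf19 was at 0.013 and its partner Cdc5l at -0.092. The interval of Prpf19 ran from -0.11 to 0.14 and that of Cdc5l from -0.23 to 0.044. Among the remaining members, Ddx46 (Prp5), the helicase that prepares U2 for the branch point, read 895.9, 999.1 and 966.2 after TDP-43 siRNA, against 1100, 987.5 and 1149 in control siRNA arrays. Control siRNA replicate 2 lay among the TDP-43 siRNA arrays, and the difference was -0.17 (SE 0.084, limma adjusted p = 0.422). Dhx15 (Prp43), which takes the spent spliceosome apart, was at 0.011, and Prpf38a, a protein of the B complex, at -0.074.

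**Figure D4:**
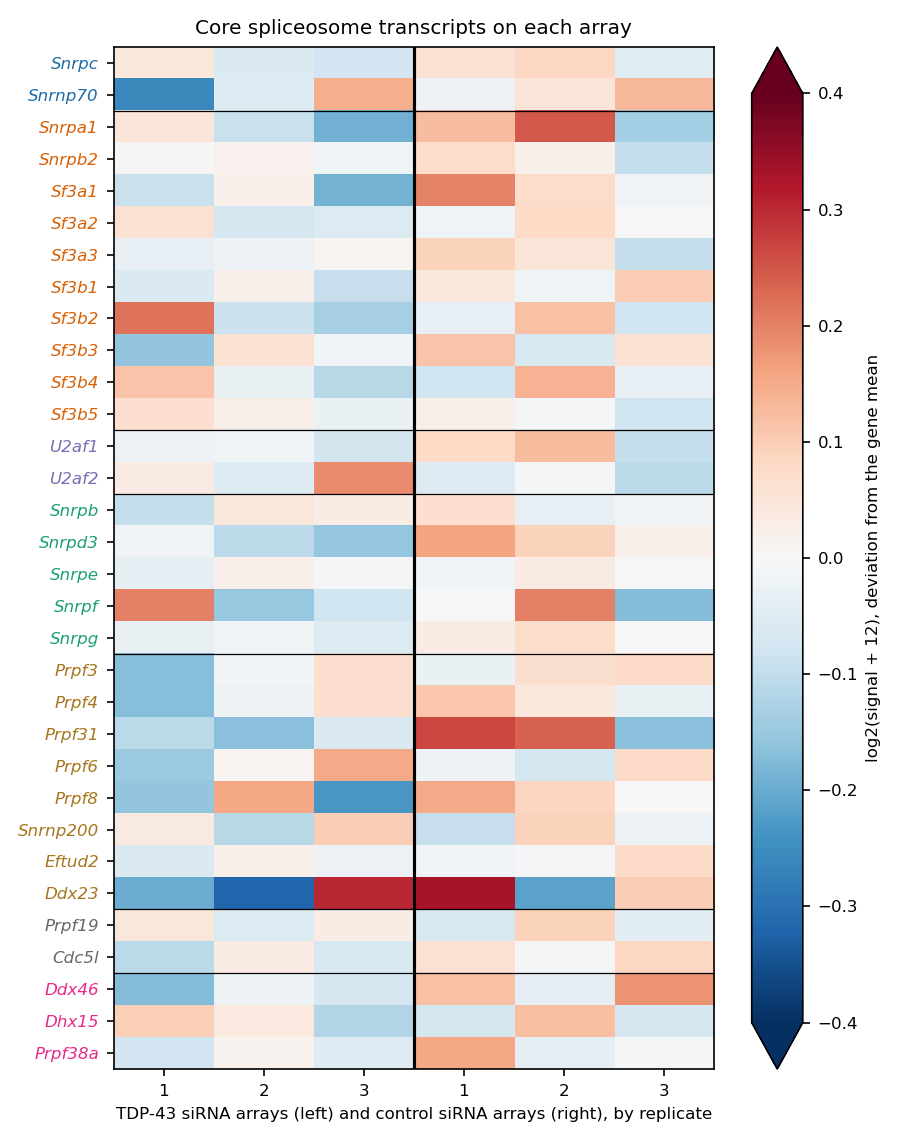
Deviation of each of the 32 members from its own mean over the 6 arrays (colour, log2(signal + 12), red above and blue below), for TDP-43 siRNA replicates 1 to 3 left of the line and control siRNA replicates 1 to 3 right of it; gene names are coloured, and lines drawn, by particle or complex. Of the members, 19 have their highest value on control siRNA replicate 1 or 2, and Sf3b2, Sf3b4, Snrpf and Dhx15 are high on TDP-43 siRNA replicate 1 and control siRNA replicate 2.

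Most members peaked on a control siRNA array. The array with a member's highest signal was TDP-43 siRNA replicate 1, 2 or 3 for 3, 1 and 4 members, against control siRNA replicate 1, 2 or 3 for 10, 9 and 5. Over all genes tested these shares were 19.1%, 12.5% and 20.4% for the TDP-43 siRNA replicates and 16.2%, 16.2% and 15.6% for the control siRNA replicates. The lowest signal was on TDP-43 siRNA replicate 1, 2 or 3 for 11, 4 and 10 members, against control siRNA replicate 1, 2 or 3 for 1, 0 and 6. For all genes tested the lowest shares were 14.2%, 12.7% and 18.4% for the TDP-43 siRNA replicates and 19.7%, 18.4% and 16.6% for the control siRNA replicates. The pair of arrays that most often held a member's 2 highest signals was control siRNA replicates 1 and 2, for 9 members (28.1%, against 10.7% of all genes tested), among them Snrpd3, Snrpa1, Sf3a1 and Prpf31. The next pair ran across the groups, TDP-43 siRNA replicate 1 with control siRNA replicate 2, for 6 members (18.8%, against 9.81% of all genes tested), namely Sf3a2, Sf3b2, Sf3b4, Snrpf, Prpf19 and Dhx15. Both pairs were picked out after the values were seen. The array means of the tri-snRNP members differed from those of the U2 and Sm ring members, which was not tested. The mean deviation of the 8 tri-snRNP members was -0.12, -0.055 and 0.046 in TDP-43 siRNA replicates 1, 2 and 3, against 0.089, 0.028 and 0.013 in control siRNA replicates 1, 2 and 3. That of the 10 U2 members was 0.017, -0.016 and -0.082 in TDP-43 siRNA replicates 1, 2 and 3, against 0.054, 0.063 and -0.037 in control siRNA replicates 1, 2 and 3. The 5 measured Sm ring members lay near the U2 members. Their mean deviation was 0.0052, -0.041 and -0.053 in TDP-43 siRNA replicates 1, 2 and 3, against 0.049, 0.073 and -0.034 in control siRNA replicates 1, 2 and 3. The mean of the tri-snRNP members was thus lowest on TDP-43 siRNA replicate 1. Those of the U2 and Sm ring members were lowest on TDP-43 siRNA replicate 3. Single members differed, with Prpf8 lowest on TDP-43 siRNA replicate 3 and Sf3a3 on control siRNA replicate 3.

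Over all their probe sets the members' differences were again mostly small and uneven. The counts over all probe sets include the 32 brightest ones already counted above, so they are not separate support. Shares below 0 or with groups apart were not taken for the 44 further ones alone. The 32 members had 76 single-gene probe sets past the filter, and by limma 0 of these passed over all probe sets, where 0.662% were called (0.149% higher and 0.512% lower). At an unadjusted p below 0.05, 2 were lower (the brightest of Snrpd3 and the dimmer one of Snrnp70 given above) and 0 higher, against 5.49% of all probe sets lower and 5.94% higher. Groups stood apart on the lower side for 7 and on the higher side for 0, against 8.13% and 9.2% of all probe sets. Below 0 lay 56 of 76, against 47.1% of all probe sets. Of the 25 members with more than 1 probe set, 12 had all of theirs below 0, among them Snrpd3, Snrnp70, Snrpa1 and Sf3b1. In 2, Dhx15 and Sf3b5, all lay above 0, and in 11 the signs were mixed. Of 44 pairs of a further and the brightest probe set, 0 differed in their change past the threshold by limma, as for 0% of all pairs, and 1 did at an unadjusted p below 0.05, against 6.98% of all pairs.

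Of the further probe sets, 12 lay over 0.2 from the brightest of their gene, and 13 had the opposite sign. Ddx23 had one at 0.42, Snrpb2 one at -0.41 and Sf3b3 one at -0.33, each beside a brightest probe set closer to 0. These were dim and imprecise, with signals of at most 84.2, 71.7 and 296.5 and SEs of 0.31, 0.22 and 0.26. Snrnp200 had one at -0.28 beside 0.016, and Ddx46 had ones at 0.10 and 0.015 beside -0.17. The probe sets of each gene were also averaged, with dim and bright ones counted alike. Some members then lay nearer 0, with Ddx46 at -0.055, Sf3a1 at -0.051, Prpf31 at -0.084 and Cdc5l at -0.047. Others lay further from 0, with Snrnp70 at -0.27 (unadjusted p = 0.0381, limma adjusted p = 0.377), Snrpd3 at -0.27, Sf3b3 at -0.20, Prpf38a at -0.18 and Eftud2 at -0.072.

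**Figure D5:**
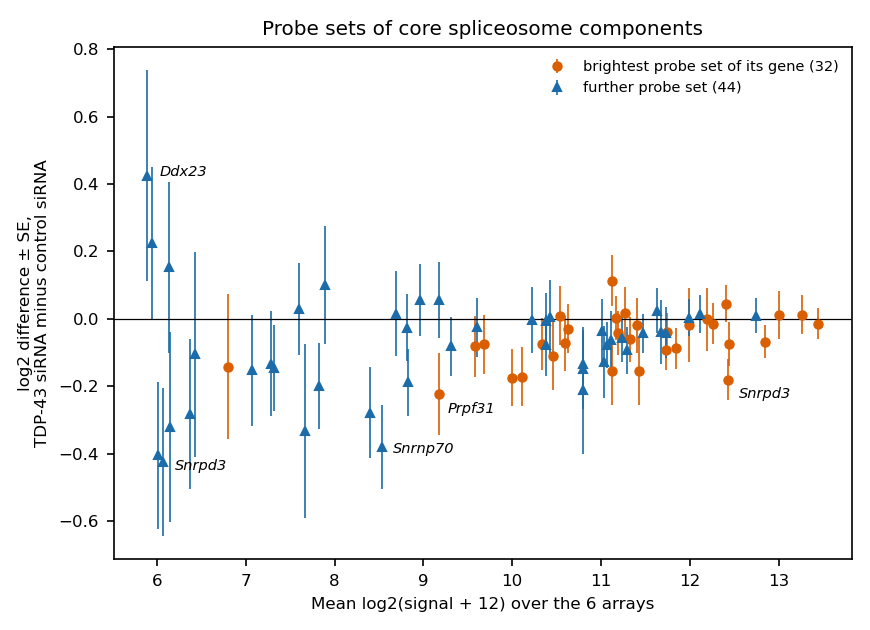
Log2 difference ± SE, TDP-43 siRNA minus control siRNA (y axis), against mean log2(signal + 12) over the 6 arrays (x axis) for the 76 probe sets of core spliceosome components, with circles for the brightest of each gene and triangles for the others. Bright probe sets stay close to 0, the wide scatter lies at the dim end, and the 2 labelled Snrpd3 probe sets and the labelled one of Snrnp70 lie below 0.

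No other gene of the spliceosome was called either. Of 96 listed genes 85 were measured, and by limma 0 passed in either direction, against 0.745% of all genes tested. At an unadjusted p below 0.05, 1 was higher and 7 were lower, against 6.71% and 5.86% of all genes tested. Of the 85, 55 lay below 0 (64.7%, against 45.1% of all genes tested), with a median of -0.055 and a range from -0.34 to 0.21. Groups stood apart on the lower side for 16 (18.8%, against 8.31% of all genes tested) and on the higher side for 3 (3.53%, against 9.98%). By role, 17 of 26 Prp19 and catalytic step factors lay below 0, and 14 of 18 further U1, U2 and early factors. So did 5 of 7 LSm proteins, most of which belong to the ring of U6, and 4 of 7 minor spliceosome proteins. The same held for 9 of 12 snRNP assembly factors and 1 of 2 exon junction proteins. By contrast 5 of 13 further tri-snRNP and B complex factors lay below 0, with a median of 0.036.

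The smallest p in this list belonged to Cdc40 (Prp17), a factor of the second catalytic step. Its signals were 863.8, 841.0 and 859.5 after TDP-43 siRNA, against 1023, 1076 and 1119 in control siRNA arrays, a difference of -0.32 (SE 0.072, limma adjusted p = 0.0893). The groups did not overlap, and the threshold was not met. Averaged over its probe sets, Cdc40 was at -0.15 (limma adjusted p = 0.584). Snrnp35, a protein of the minor U11 particle, was at -0.34 (SE 0.11, limma adjusted p = 0.235), with 337, 336 and 326 after TDP-43 siRNA against 462, 454 and 363 in control siRNA arrays. Gemin2, which holds the Sm proteins for the SMN complex as it loads them on snRNA, was at -0.25, while Clns1a (pICln), which delivers Sm proteins to that complex, was at 0.11. Neither Gemin2 nor Clns1a passed, with limma adjusted p-values of 0.224 and 0.334.

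Among the remaining genes with the smallest p of their role, Smndc1 (SPF30) was at -0.20 and the helicase Ddx39b (UAP56) at -0.18, both early factors. Lsm4 and Lsm6 of the LSm ring were at -0.17 and -0.13, and Ppil1, a prolyl isomerase of the catalytic spliceosome, at -0.19. Snrnp48 of the minor spliceosome was at -0.16, the B complex factor Smu1 at 0.092 and the recycling factor Sart3 at -0.11. In the exon junction complex, which marks spliced junctions, Rbm8a (Y14) was at -0.11 and Casc3 at 0.0095. Averaged over their probe sets, Rbm8a was at -0.0088, Lsm6 at -0.050, Smndc1 at -0.13 and Smu1 at 0.054. Without probe sets that can read several transcripts, Snrnp48 was at -0.37. None of these genes passed on the brightest probe set, and their limma adjusted p-values lay above that of Cdc40.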

How the data were processed

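The deposited table gives each of 45101 probe sets a linear signal intensity on 6 arrays, made with MAS5, per the submitters' processing notes (version not given in the sources used here). As checked on the table, the mean without the highest and lowest 2% was 500.003 on every array.

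Names came from the annotation of the platform (34945 with 1 gene, 932 with several, 9160 not listed, 64 controls), and 34741 symbols were updated with RefSeq (GRCm38.p6). The value 12 was added before log2, the dimmest 40% of probe sets by mean log2 value were left out, and each gene was read on its brightest single-gene probe set. The group comparison used limma 3.58.1 and R 4.3.3 (intensity trend, two-sided, Benjamini-Hochberg over 12614 genes, threshold 0.05). Figures used matplotlib 3.10.9. Steps were tested on simulated data.

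Members, role groups and lists were chosen with earlier results of these data known. All members were named. Signals on every array were given for members with unadjusted p below 0.05, the 6 with the smallest p, and those with the highest and lowest difference, and for some others chosen after their values were seen. From each role of the other list, the 2 smallest p were named. Alternatives were 2 pseudocounts (1 and 42), 2 filters, 2 scalings, 3 variance or weight settings, 2 probe set choices, the replicate number as a block, and each array left out.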

Additional observations from a re-analysis of the deposited data

How the results depend on the processing

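In 12 alternatives and 6 fits that left out 1 array, 0 members, 0 of their probe sets, 0 of their probe set pairs and 0 other spliceosome genes passed by limma. The lowest adjusted p of a member was 0.0784, for Prpf31 without control siRNA replicate 3. Below 0 lay 23 to 28 members, and their median ran from -0.066 to -0.042 with 1 array left out (-0.042 without control siRNA replicate 2) and from -0.074 to -0.058 otherwise. Over all genes, 94 were called, 51 with no filter, 12 with no intensity trend, 163 with array weights and 32 to 264 with 1 array left out (264 without control siRNA replicate 3). Tardbp missed the threshold with no intensity trend (-0.85, limma adjusted p = 0.0587) and ran from -0.90 to -0.75 with 1 array left out. Members at an unadjusted p below 0.05 numbered 1, 2 with array weights or the mean of probe sets, and 0 to 5 with 1 array left out. The 5, without control siRNA replicate 3, were Snrpa1, Sf3a1, U2af1, Snrpd3 and Prpf31; the 0 was without control siRNA replicate 1. Members with groups apart numbered 2, against 1 with quantile normalization or without s and x probe sets and 3 with the mean of probe sets. With 1 array left out they numbered 2 to 10, where fewer arrays make separation easier. Shares of all genes at an unadjusted p below 0.05 or with groups apart are not given for these settings. The members' counts there cannot be set against a background.

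Of the 32 members 19 kept their sign throughout. Signs turned for Snrpb2 (-0.0065 with quantile normalization, -0.0064 with median centring, -0.014 with array weights, -0.18 with the mean of probe sets), Sf3a2 (0.028 without s and x probe sets), Sf3b2 (0.019) and Snrpb (0.0065) with quantile normalization, and, with the mean of probe sets, Sf3b4 (0.018), Snrnp200 (-0.13, and -0.0049 with array weights), Ddx23 (0.14) and Prpf19 (-0.0065). With 1 array left out, Snrpb2 ran from -0.045 to 0.038, Sf3a3 from -0.085 to 0.0083, Sf3b2 from -0.11 to 0.064 and Sf3b4 from -0.081 to 0.046. Snrpb ran from -0.040 to 0.029, Snrpe from -0.029 to 0.00061, Snrpf from -0.125 to 0.077 and Prpf6 from -0.064 to 0.085. Snrnp200 ran from -0.029 to 0.076, Prpf19 from -0.017 to 0.062 and Dhx15 from -0.033 to 0.074. Casc3, which is not a member, ran from -0.054 to 0.083. None of these values passed, and the causes were not tested.

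Same-numbered arrays deviated together for replicate 3 but not for replicates 1 and 2 (correlations across genes 0.24, -0.12 and -0.14), so the numbers were not taken to pair the samples. TDP-43 siRNA replicate 1 correlated best with control siRNA replicate 2 (0.30), and TDP-43 siRNA replicate 2 with control siRNA replicate 1 (0.23), a hint from the data and not from the design, and no block for it was fitted. With the replicate block 127 genes and 0 members were called, and the members' median was -0.064. With the 60% filter Ddx23 was not tested. Dim probe sets carried the widest intervals.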
